A study of Rattus norvegicus with 113 samples.

Results

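The genes described here make, break down and respond to cyclic AMP (cAMP) in the rat hippocampus and cortex: the adenylyl cyclases (Adcy), the cyclic nucleotide phosphodiesterases (Pde), the subunits of protein kinase A (Prka) and the Creb family of transcription factors (Creb1, Creb5, Crem and Atf1). Members were chosen by gene symbol alone, from the RefSeq name of each probe's transcript identifier. RefSeq holds 44 rat genes of these families, and 41 of them were measured, out of 16691 genes named on the arrays. Creb3, Pde12 and Pde6c had no named probe. The 41 genes are 10 cyclases, 21 phosphodiesterases, 6 kinase subunits and 4 transcription factors, read by 69 probes on the larger of the array designs. A gene with several probes is read here from the probe with the highest mean signal.

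RNA came from adult male Sprague-Dawley rats that were naive (neither anesthetized nor handled), sham-injured (anesthetized and operated on without the injury) or given a parasagittal fluid-percussion traumatic brain injury (TBI). The labels call the injury moderate and the study's methods call it severe. Tissue was taken 24 hr, 2 weeks, 3 months, 6 months and 12 months later, from 4 rats per group, tissue and interval. The hippocampus at 24 hr is short of arrays, with 2 of sham rats, 3 of TBI rats and none of naive rats. The 113 arrays comprise 96 of a larger design (45598 probes) and 17 of a smaller design (30367 probes), which carries the hippocampus at 24 hr and 3 months and lacks Adcy9.

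A level is the log2 processed signal of a probe minus the median of its array, so that 0 is the median probe, and a difference of 1 is a doubling. Levels of different probes or designs are not compared with each other. A gene is called when its limma p-value, adjusted over all probes tested, is under 0.05. Probes well above background made up 41.2% to 93.0% of an array (median 55.1%). Arrays numbered 3 among the cortex sham rats at 2 weeks, 4 among the cortex naive rats at 2 weeks and 2 among the hippocampal naive rats at 6 months stood apart. The 75th percentile of their signals lay 0.80, 2.20 and 3.05 log2 units above the median, against a median of 3.69 over the other arrays. Results that rest on them are given with and without them. The hippocampus markers Prox1 and Neurod6 were above background in all 36 hippocampal arrays of the larger design and also in all 60 cortex arrays. The level of Neurod6 averaged 7.65 in hippocampus and 5.68 in cortex.

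Adenylyl cyclases convert ATP to cAMP when Gs-coupled receptors for transmitters such as dopamine or noradrenaline are active, and several of them also respond to calcium. cAMP frees the catalytic subunits of protein kinase A from its regulatory subunits, and the kinase phosphorylates Creb, which binds the cAMP response element (CRE) of its target genes. Phosphodiesterases end the signal by hydrolyzing cAMP, cGMP or both. In hippocampal neurons this pathway is known for its part in long-lasting synaptic plasticity and memory.

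The CRE is an inverted repeat, TGACGTCA, whose strands each carry the core TGACG. On the other strand the core reads CGTCA, so that a full element also counts as holding the core. RefSeq promoter windows on GRCr8, 250 bases before to 50 after a transcript start, were found for 31 of the 44 genes (29 of them measured), as 47 windows. The full motif stood in 1.83% of all 33469 windows and in 2 member windows, both of Crem. The core on either strand stood in 21.2% of all windows and in 29.8% of the member windows, from 10 genes. The 250 bases before the start are printed for the windows of Crem, the called member with the full motif, and for the one of the Pde10a windows that holds the core without the full motif (its other window holds neither), with the motif letters in capitals and each sequence running 5′ to 3′ on the gene's strand.
Crem chr17:58933816-58934065 (+ strand): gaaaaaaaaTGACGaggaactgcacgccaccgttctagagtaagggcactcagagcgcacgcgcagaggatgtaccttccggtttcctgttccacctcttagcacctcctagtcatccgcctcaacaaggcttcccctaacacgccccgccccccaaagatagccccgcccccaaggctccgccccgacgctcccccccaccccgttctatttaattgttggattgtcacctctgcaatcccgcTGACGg
Crem chr17:58984547-58984796 (+ strand): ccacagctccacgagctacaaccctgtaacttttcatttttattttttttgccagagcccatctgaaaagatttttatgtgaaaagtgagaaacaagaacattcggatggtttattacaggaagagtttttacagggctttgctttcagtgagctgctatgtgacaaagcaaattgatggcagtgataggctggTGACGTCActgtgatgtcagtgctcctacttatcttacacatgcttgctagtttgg
Crem chr17:58985240-58985489 (+ strand): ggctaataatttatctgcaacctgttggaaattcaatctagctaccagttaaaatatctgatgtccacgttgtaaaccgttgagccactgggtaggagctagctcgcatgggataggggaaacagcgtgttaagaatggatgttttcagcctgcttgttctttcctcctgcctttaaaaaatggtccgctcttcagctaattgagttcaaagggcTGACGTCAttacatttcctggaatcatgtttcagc
Pde10a chr1:54765669-54765918 (- strand): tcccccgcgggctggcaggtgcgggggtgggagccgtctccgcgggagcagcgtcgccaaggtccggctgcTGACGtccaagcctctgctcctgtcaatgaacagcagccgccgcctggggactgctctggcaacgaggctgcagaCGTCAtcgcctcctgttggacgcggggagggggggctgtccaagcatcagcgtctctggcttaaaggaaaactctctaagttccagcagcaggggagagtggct
The capitals mark a match of letters and not a measured binding site. Crem is known for an internal promoter that yields short repressor forms induced by cAMP.

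Among the cyclases, Adcy1 and Adcy8 are stimulated by calcium and calmodulin, and over the 96 arrays of the larger design their levels averaged -0.44 and 3.55. Adcy5 (4.83) and Adcy6 (4.09) are inhibited by calcium, and Adcy2 (6.01), Adcy4 (-0.93) and Adcy7 (-1.41) respond to G protein beta-gamma subunits. Adcy3 (3.09) serves olfactory signaling and neuronal primary cilia, Adcy9 (6.62) is the cyclase least sensitive to forskolin, and Adcy10 (-0.63) is the soluble, bicarbonate-stimulated enzyme. Adcy7, Adcy4, Adcy10 and Adcy1 were above background in 29, 49, 61 and 66 of the 96 arrays.

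Of the phosphodiesterases, Pde1a (0.91), Pde1b (4.52) and Pde1c (-1.46) are activated by calcium and calmodulin, and Pde2a (8.02) is stimulated by cGMP. Pde3a (-2.86) and Pde3b (-2.44) are inhibited by cGMP, and Pde4a (6.07), Pde4b (3.62), Pde4c (-1.98) and Pde4d (6.73) are the cAMP-specific targets of rolipram. Pde7a (2.02), Pde7b (0.02), Pde8a (3.09) and Pde8b (5.31) are also cAMP-specific. Pde5a (2.26) and Pde9a (5.48) act on cGMP, Pde6a (-2.76) and Pde6b (-1.03) are the cGMP-specific enzymes of photoreceptors, and Pde10a (6.61) and Pde11a (-0.42) act on both nucleotides. Pde10a is known as an abundant enzyme of striatal neurons. Pde6d (5.75) bears the family name but is a prenyl-binding chaperone. Pde3a, Pde6a, Pde3b and Pde4c were above background in 3, 5, 7 and 15 of the 96 arrays and entered no TBI vs sham test.

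The kinase genes Prkaca (8.12) and Prkacb (7.98) encode catalytic subunits, and Prkar1a (8.03), Prkar1b (8.74), Prkar2a (-0.92) and Prkar2b (5.98) encode regulatory subunits. Prkar2a was above background in 43 of the 96 arrays. Of the transcription factors, Creb1 had a mean level of 0.32, Creb5 of 0.72, Crem of 4.77 and Atf1 of 4.91, and Creb1 was above background in 85 arrays.

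To ask when injury changed these genes, TBI was compared with sham in each tissue at each interval. Members were called in the hippocampus at 24 hr (Crem higher, Pde4d and Pde10a lower) and at 2 weeks (Pde2a lower), and in no other comparison when all arrays were kept. The calls were 3 of 23 and 1 of 32 members tested, beside 14% and 2.41% of all probes. The Pde4d probe entered the test at 24 hr through the sham arrays alone. When both groups had to be above background, 1 member was called higher and 1 lower there, beside 901 and 988 of 14252 probes. The members called were Crem and phosphodiesterases, which make up 21 of the 41 genes. No cyclase or kinase subunit was called in any TBI vs sham comparison with all arrays kept. The shares of members called were near those of all probes, so that nothing is read about a family from these calls. On the smaller design Adcy1, Adcy6, Adcy7, Adcy10 and Prkar2a were above background in 0 of 17 arrays and Adcy4 in 1. These genes, and Adcy9, which has no probe there, were not tested in the hippocampus at 24 hr. Differences in a bulk tissue sample cannot tell apart fewer cells of a type from less RNA per cell.

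**Figure D1:**
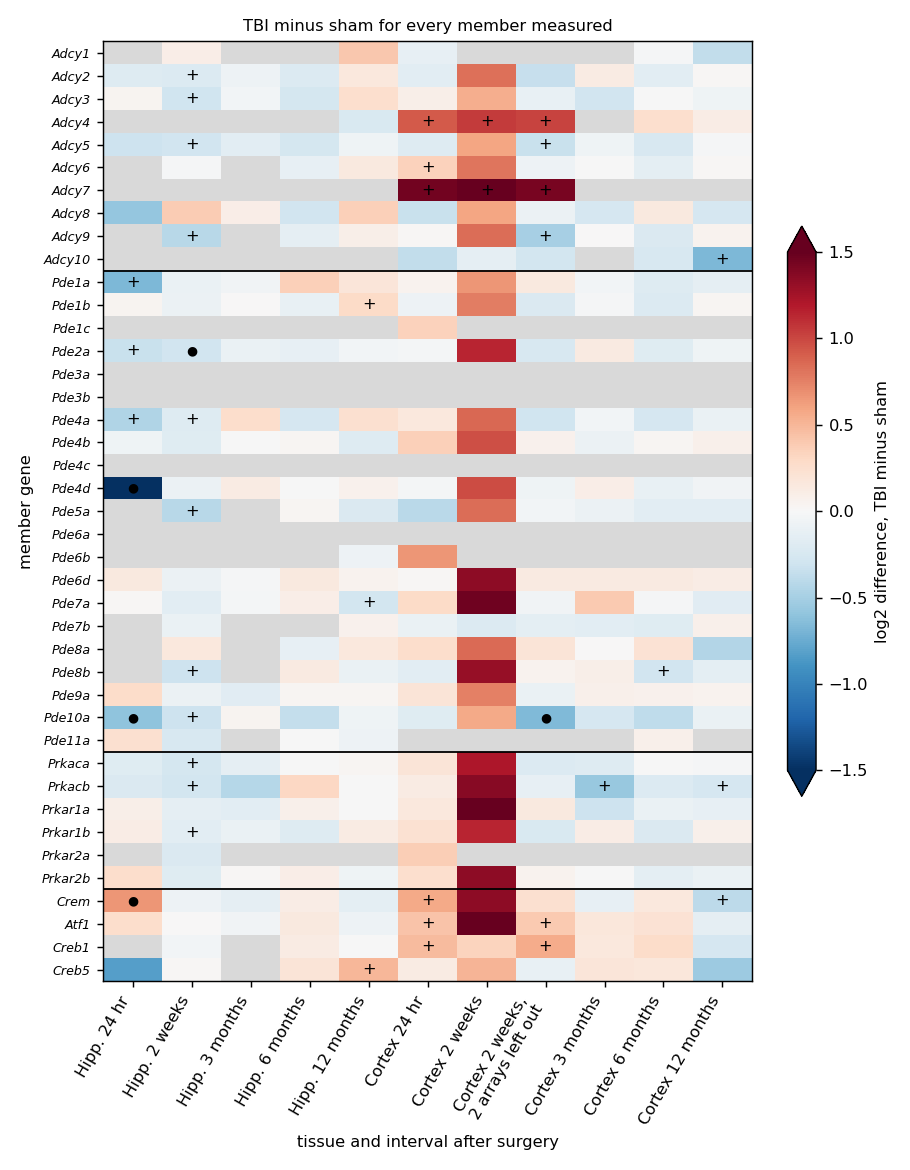
Log2 TBI minus sham difference (color, log2 units) for each gene (rows, by family) in each tissue and interval (columns), with the cortex at 2 weeks also drawn without the 2 arrays that stood apart; a dot marks a called gene, a plus an unadjusted p under 0.05, and grey a gene not tested. Dots are seen for Crem, Pde4d (on a probe tested through the sham arrays alone), Pde10a and Pde2a in the hippocampus, and for Pde10a in the cortex at 2 weeks only without those arrays.

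In the hippocampus at 24 hr, 3 of 23 members tested were called, beside 14% of the 16193 probes tested. The member called higher stands beside 5.79% of all probes called higher, and the 2 called lower beside 8.21% called lower. The median difference was -0.07 for the members and -0.02 for all probes. Crem lay at 3.21 and 3.00 in the sham rats and at 3.72, 3.86 and 3.69 in the TBI rats. Every TBI array was above both sham arrays. The difference was 0.66 ± 0.15 (SE, n = 2 and 3; 1.58-fold higher; adjusted p = 0.0339). Other Crem probes gave 1.46 (adjusted p = 0.00493), 0.80 (0.0249), 0.54 (0.0503) and 0.03 (0.942), so that the probes of the gene differed in size of change.

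Pde4d lay at 2.02 and 1.83 in sham and at -0.34, -0.01 and 0.76 in TBI, where it was above background in 2 of 3 arrays. The groups were separate on this probe, and the difference was -1.79 ± 0.32 on the log2 scale (3.46-fold; adjusted p = 0.0182). The probe entered the test through the sham arrays alone, and was not tested when both groups had to be above background. Nothing is therefore read from its call or from the lack of overlap. The other Pde4d probe tested differed by 0.02 (adjusted p = 0.928), so the lower value was seen on 1 probe of the gene. Pde10a was at 5.96 and 6.05 in sham and at 5.53, 5.31 and 5.37 in TBI. All TBI arrays were lower, and Pde10a fell by 0.60 ± 0.14 (1.52-fold; adjusted p = 0.0411), while its second probe differed by -0.44 (adjusted p = 0.165). Pde1a, at 4.91 and 4.53 in sham and 3.80, 3.82 and 4.53 in TBI, differed by -0.67 and was not called (adjusted p = 0.144). Its highest TBI array reached the level of the lower sham array.

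At an unadjusted p under 0.05 there were 6 members, 1 higher and 5 lower, beside 31.5% of all probes, and the groups of 10 of the 23 members did not overlap, beside 50.2% of all probes. Neither share of members was above that of all probes. Sham and TBI arrays of this interval lay on different slides scanned on different days, so that scan and injury cannot be told apart. Without either sham array, when the remaining one is assumed to vary like the TBI arrays, no member was called, without TBI array 1 or 2 Pde4d alone was called, and without TBI array 3 Pde1a was called (-0.91).

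**Figure D2:**
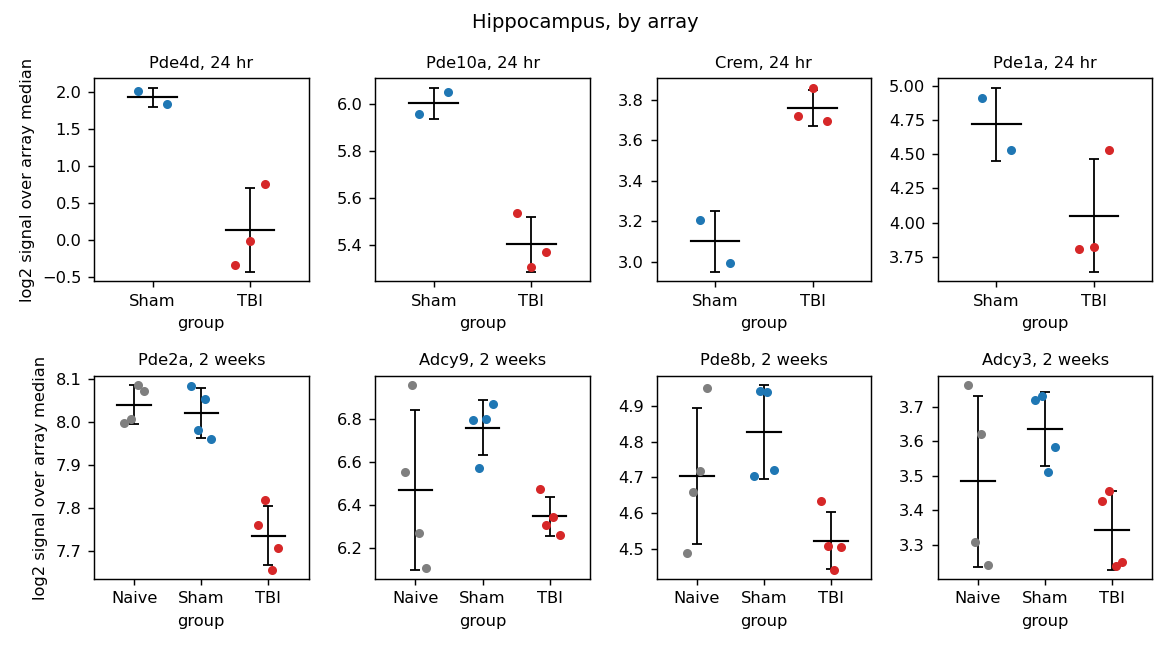
Level (log2 signal over the array median, vertical axis) of Pde4d, Pde10a, Crem and Pde1a at 24 hr (top) and of Pde2a, Adcy9, Pde8b and Adcy3 at 2 weeks (bottom) in single hippocampal arrays; points are arrays, bars the group mean and error bars the SD. At 24 hr Crem rises from 3.00 and 3.21 to between 3.69 and 3.86, and at 2 weeks the 4 TBI arrays of Pde2a (7.66 to 7.82) lie below all 4 sham arrays (7.96 to 8.08).

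In the hippocampus at 2 weeks, 1 of 32 members tested was called, beside 2.41% of all probes. Pde2a was at 8.08, 7.98, 8.05 and 7.96 in sham and at 7.76, 7.82, 7.66 and 7.71 in TBI. Both groups lay on one slide. They did not overlap, and naive rats, at most 8.09, lay with the sham rats. Pde2a fell by 0.28 ± 0.06 (n = 4 and 4; 1.22-fold; adjusted p = 0.0405). Against the 75th percentile of each array, the scale of the authors' deposited intensities, in place of its median, the difference was -0.19 and was not called, and the call was lost under several other settings (adjusted p from 0.0684 to 0.606 there). Among them were the fits without TBI array 1, 3 or 4 and without sham array 2, 3 or 4.

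The 12 members with an unadjusted p under 0.05 were all lower in TBI, beside 25.1% of all probes in either direction and 20.9% of all probes counted as lower. The median of all probes was -0.11 and that of the members -0.16. With the 75th percentile of each array as its scale these medians were -0.02 and -0.06, and 3 members, all lower, had an unadjusted p under 0.05. Over all probes the calls were 266 higher and 338 lower with the array median and 386 higher and 70 lower with the 75th percentile. Adcy9 was at 6.79, 6.57, 6.80 and 6.87 in sham and 6.47, 6.31, 6.34 and 6.26 in TBI, with no overlap, and differed by -0.41 (adjusted p = 0.133). Pde8b, at 4.70, 4.94, 4.94 and 4.72 against 4.63, 4.51, 4.44 and 4.51, differed by -0.31 (adjusted p = 0.105), again without overlap. Adcy3 was at 3.72, 3.73, 3.51 and 3.58 in sham and 3.43, 3.46, 3.24 and 3.25 in TBI, also apart, and differed by -0.29 (adjusted p = 0.153). Naive rats ran from 6.11 to 6.96 for Adcy9, from 4.49 to 4.95 for Pde8b and from 3.24 to 3.76 for Adcy3, and so overlapped both groups for these genes.

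The remaining members of the 12 were of every role except the transcription factors. They were the cyclases Adcy2 (-0.20) and Adcy5 (-0.29), the phosphodiesterases Pde4a (-0.19), Pde5a (-0.41) and Pde10a (-0.32), and the kinase subunits Prkaca (-0.27), Prkacb (-0.27) and Prkar1b (-0.16). None was called, with adjusted p of 0.0722 for Pde5a and 0.0872 for Prkaca. The groups of 8 members did not overlap, beside 17.8% of all probes.

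The later hippocampal intervals gave no call, with 0 of 21, 0 of 29 and 0 of 33 members called at 3, 6 and 12 months, beside 0.0138%, 0.0134% and 0% of all probes. At an unadjusted p under 0.05 there were 0 members at 3 months and 0 at 6 months, beside 5.49% and 2.85% of all probes. The 6-month fit shares its spread with the naive array that stood apart. Without that array 0 of 29 members were called, beside 0% of all probes, and Pde10a differed by -0.36 (unadjusted p = 0.0187, adjusted p = 0.55). At 6 months 6 members, all lower, had an unadjusted p under 0.05 with the 75th percentile as the scale. With the 2 groups alone 1 was higher and 4 lower, and neither setting gave a call. At 12 months 3 members had an unadjusted p under 0.05, beside 14.5% of all probes. Creb5, a relative of Creb1 that binds the same element, was at 0.94, 1.01, 0.73 and 0.60 in sham and at 1.72, 1.1, 1.21 and 1.22 in TBI. The groups did not overlap, and the difference was 0.49 (adjusted p = 0.263). Pde7a, at 2.22, 2.35, 2.20 and 2.27 against 1.84, 2.07, 2.16 and 1.86, differed by -0.28 (adjusted p = 0.275), also without overlap. Pde1b differed by 0.28.

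In the cortex at 24 hr, 0 of 36 members were called, beside 0.217% of all probes, and the median difference was 0.14 for the members and 0.12 for all probes. Each slide held arrays of only one of these groups, and the part of the slide cannot be told apart from that of the injury. The 6 members with an unadjusted p under 0.05 were all higher in TBI, beside 20.8% of all probes in either direction and 18.8% counted as higher. With the 75th percentile as the scale the median of the members was -0.000754 and that of all probes -0.02, and 2 members were higher and 1 lower at an unadjusted p under 0.05. Atf1, a close relative of Creb1, was at 4.49, 4.73, 4.63 and 4.74 in sham and 5.08, 4.97, 4.98 and 5.27 in TBI, without overlap, and differed by 0.43 ± 0.12 (adjusted p = 0.0899). Adcy6, at 3.84, 3.77, 3.85 and 3.69 against 3.88, 4.12, 4.40 and 4.12, differed by 0.34 (adjusted p = 0.144), with the lowest TBI array just above the highest sham array.

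Crem in the cortex at 24 hr was at 4.61, 4.55, 4.59 and 4.88 in sham and 5.40, 5.14, 4.80 and 5.59 in TBI. The third TBI array lay within the sham range, and the difference was 0.57 (adjusted p = 0.0935), called without that array. Adcy7, known from immune cells and brain, was at -2.78, -0.69, -2.84 and -0.28 in sham, where it was above background in 2 of 4 arrays, and at 0.07, -0.51, -0.86 and 0.50 in TBI, a difference of 1.45 (adjusted p = 0.213) with overlap. Its probe entered this test through the TBI arrays alone. Adcy4, at -1.53, -0.26, -1.62 and 0.01 against 0.51, -0.13, -0.18 and 0.07, differed by 0.92 (adjusted p = 0.159), and Creb1 by 0.47 (adjusted p = 0.209). With both groups required above background, the members with an unadjusted p under 0.05 fell to 4, again all higher.

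**Figure D3:**
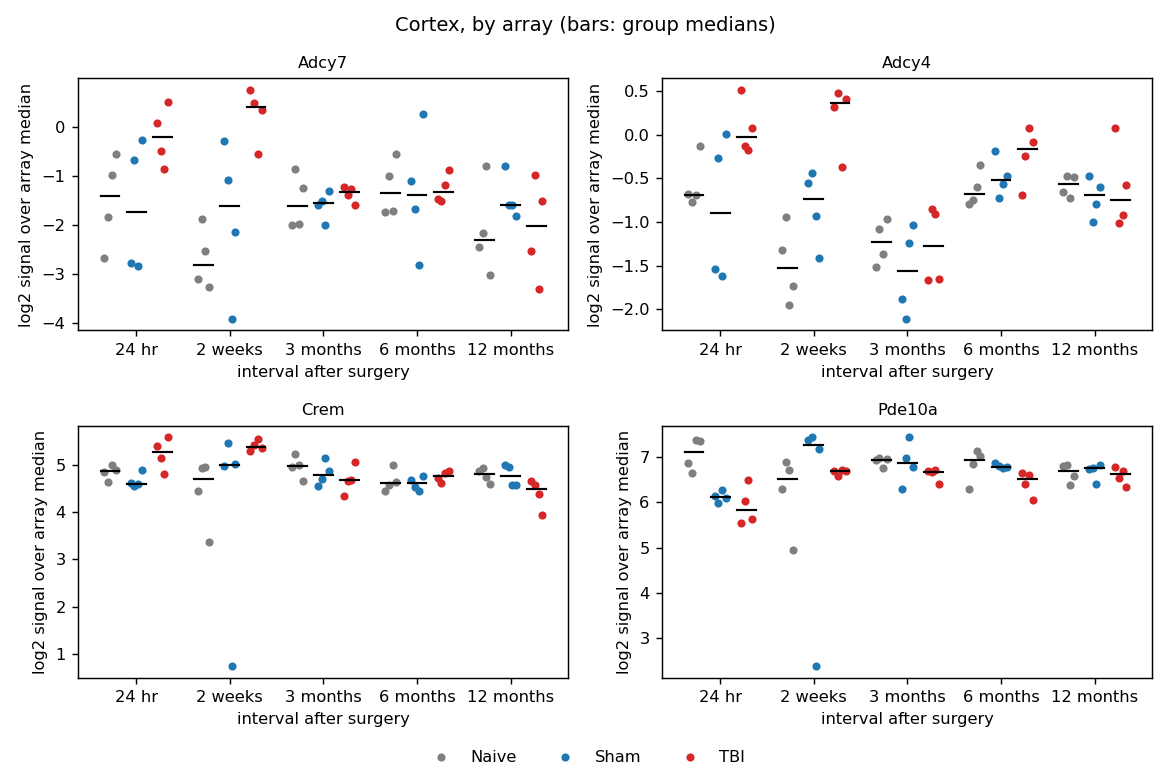
Level (log2 signal over the array median, vertical axis) of Adcy7, Adcy4, Crem and Pde10a in single cortex arrays of naive, sham and TBI rats by interval after injury (horizontal axis); points are arrays and bars group medians. At 2 weeks 1 sham array of Crem (0.74) and of Pde10a (2.38) lies far below the others of its group.

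In the cortex at 2 weeks, 0 of 32 members were called, beside 0.00849% of all probes, with a median difference of 0.86 for the members and 0.95 for all probes. At an unadjusted p under 0.05 there were 2, beside 4.03% of all probes. Slide and injury cannot be told apart here either. Without the sham and naive arrays that stood apart the medians were -0.08 and 0.01, and 1 of 32 members was called, beside 4.47% of all probes. That member was Pde10a, at 7.38, 7.44, 2.38 and 7.17 in sham, where the third value is the array that stood apart, and at 6.69, 6.57, 6.71 and 6.69 in TBI. Leaving that array out, every TBI array was below every sham array, and Pde10a was lower by 0.67 ± 0.16 (difference -0.67; adjusted p = 0.0306). Naive rats were at 6.30, 6.88, 6.72 and 4.95, the last from an array that stood apart, and the other 3 lay on both sides of the TBI rats. Striatum markers ran from 3.43 to 3.59 in the 3 other sham arrays (0.35 in the array that stood apart) and from 3.07 to 3.34 in TBI, and their part in the value of Pde10a was not tested.

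Adcy7 in the cortex at 2 weeks was above background in no sham array (-0.30, -1.08, -3.92 and -2.14) and at 0.75, 0.47, -0.56 and 0.33 in TBI. Its TBI level was at least 1.67-fold higher than the background bound (adjusted p = 0.502), and 1 TBI array lay within the sham range. It entered the test through the TBI arrays alone, and without the arrays that stood apart it was not called either (adjusted p = 0.0741). With only the sham array that stood apart left out, and the naive one kept, Adcy7 was the member called and Pde10a was not. Adcy4, at -0.56, -0.43, -0.92 and -1.41 against 0.32, 0.48, -0.37 and 0.41, did not overlap and differed by 1.04 (adjusted p = 0.502), or 1.01 without those arrays (adjusted p = 0.0738). Its probe also entered the test through the TBI arrays alone, so that nothing is read from the lack of overlap. With both groups required above background, 0 members had an unadjusted p under 0.05 with all arrays kept. On the authors' scaled intensities the difference of Adcy4 turned to -0.30. The other members with an unadjusted p under 0.05 without those arrays were Adcy9 (-0.50), Creb1 (0.55), Atf1 (0.39) and Adcy5 (-0.33), none of them called.

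In the cortex at 3, 6 and 12 months 0 of 29, 0 of 33 and 0 of 32 members were called, beside 0%, 0.0805% and 0% of all probes. At an unadjusted p under 0.05 there were 1, 1 and 3 members, all lower, beside 4.37%, 9.89% and 5.7% of all probes. The count at 6 months depended on the processing. With the 75th percentile as the scale it was 7, all lower, and the medians were -0.15 for the members and -0.01 for all probes. With another background correction (normexp) 2 were higher and 0 lower. Neither setting gave a call. Prkacb at 3 months was at 8.31 and 8.29 in the 2 sham arrays with a usable spot and at 7.79, 7.84, 7.59 and 7.71 in TBI, a difference of -0.57 (adjusted p = 1.00) without overlap. Its other probes gave -0.11, 0.06 and 0.32, so the lower value belongs to 1 probe. At 12 months the same Prkacb probe was at 8.44, 8.50 and 8.42 in the 3 sham arrays with a usable spot and at 8.06, 8.25, 8.31 and 8.17 in TBI, a difference of -0.26 (adjusted p = 0.838). Pde8b at 6 months was at 6.06, 6.02, 6.05 and 6.07 in sham and 5.79, 5.68, 5.82 and 5.77 in TBI, with no overlap, and differed by -0.29 (adjusted p = 0.41). Sham and TBI arrays of that interval lay on different slides. At 12 months Adcy10 (-0.67) and Crem (-0.39) also had an unadjusted p under 0.05.

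Genes on either side of the cyclases were read from fixed lists, for TBI vs sham. The counts at 24 hr in the hippocampus stand beside the 5.79% of all probes called higher and 8.21% called lower there. In the hippocampus at 24 hr, 0 of 19 receptors and ligands tested rose and 2 fell, the cannabinoid receptor Cnr1 (-1.71) and the VIP receptor Vipr2 (-0.95), and 1 of 14 G protein genes fell, Gnao1 (-0.60), which encodes the alpha subunit of Go. Of 13 kinase anchors and inhibitors 1 rose, Akap12 (1.33). Of 17 coactivators, kinases and relatives of Creb, Atf3 (2.78), a stress-induced factor, and the kinase Rps6ka3 (0.59) rose and Creb3l2 (-0.57) fell. Of 23 Creb target genes 3 rose and 4 fell. Those that rose were Fos (1.31), Gadd45b (1.26) and Jun (0.66), and those that fell were the neuropeptide Sst (-1.47) and the immediate early genes Egr1 (-1.0), Nr4a3 (-0.86) and Nr4a1 (-0.83). The median over the target list was 0.06, beside -0.02 for all probes. None of 5 other cAMP sensors or of 4 guanylyl cyclase and cGMP genes was called.

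In TBI vs sham at 2 weeks in the hippocampus, among 19 coactivators, kinases and relatives of Creb, Atf3 rose (1.74) while the coactivator Crebbp (-0.36) and Crebl2 (-0.29) fell, beside 1.06% of all probes called higher and 1.35% called lower. The number of probes called lower there depended on the scaling, as given above. Receptors and ligands, not reported here, aside, no other gene of these lists was called there, and no gene of the pathway lists at the later hippocampal intervals or in the cortex with all arrays kept.

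Markers of other cells moved in the same comparisons, whose shares of all probes called higher and lower are those given for the pathway lists. In the hippocampus at 24 hr, 6 of 9 reactive astrocyte markers tested rose (mean level over the list 3.01 to 4.04 in sham and 5.62 to 6.53 in TBI), as did 4 of 15 microglia and macrophage markers (4.16 to 4.29 and 4.77 to 5.40), while 1 of 11 neuron markers fell (4.71 to 4.83 and 4.53 to 4.65). At 2 weeks 13 of 15 microglia and macrophage markers rose (4.16 to 4.43 in sham and 5.05 to 6.20 in TBI) and the neuron markers ran from 5.83 to 6.01 in sham and 5.57 to 5.74 in TBI. Striatum markers, whose tissue is rich in Pde10a, ran from 1.54 to 2.18 in sham and 1.70 to 2.07 in TBI at 24 hr. The part of any of these cells in the changes of Crem, Pde4d, Pde10a and Pde2a was not tested.

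In the cortex, the microglia and macrophage markers ran from 4.27 to 5.26 in sham and 5.36 to 5.92 in TBI at 24 hr, and from 0.64 to 4.77 and 6.23 to 6.89 at 2 weeks, where the lowest sham value is the array that stood apart. Their part in the values of Adcy7 and Adcy4 was not tested.

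Naive rats give the baseline without surgery, and sham was compared with naive to ask what anesthesia and surgery alone changed. In the cortex at 24 hr, 7 of 32 members were lower in sham and none higher, beside 19.3% of all probes called in either direction and 18.3% called lower. They were 5 phosphodiesterases, 1 cyclase and 1 kinase subunit, and both groups lay on one slide. The median difference was -0.38 for the members and -0.20 for all probes, and 15 members had an unadjusted p under 0.05, all lower, beside 34.8% of all probes in either direction and 31.8% counted as lower. The groups of 10 members did not overlap, beside 27.5% of all probes.

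Pde10a was at 6.86, 6.65, 7.39 and 7.36 in naive cortex and 6.13, 5.98, 6.27 and 6.08 in sham, without overlap, and was lower by 0.95 ± 0.22 (difference -0.95; adjusted p = 0.0151). Pde4a was at 6.71, 6.71, 6.76 and 6.72 in naive and 5.83, 6.00, 6.01 and 6.00 in sham, also apart, and differed by -0.76 ± 0.15 (adjusted p = 0.00941). Pde8b, at 5.59, 6.08, 5.92 and 6.19 against 5.37, 5.01, 5.26 and 5.37, differed by -0.69 ± 0.20 (adjusted p = 0.0351). Each of these enzymes was lower in every sham array than in any naive array.

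Adcy6 was at 4.44, 4.33, 4.59 and 4.34 in naive cortex against the sham levels given above for 24 hr, and differed by -0.64 ± 0.12 (adjusted p = 0.00907). Pde4d, at 7.13, 7.07, 7.06 and 7.17 against 6.58, 6.56, 6.46 and 6.46, differed by -0.59 ± 0.12 (adjusted p = 0.0108), but by -0.02 when all its probes were averaged by their median. Pde7a (-0.55; adjusted p = 0.0238) and Prkar1b (-0.50; adjusted p = 0.0187) completed the set. With each array set to its 75th percentile none of the 7 was called, and the medians moved to -0.20 for the members and -0.02 for all probes. Under that scaling 166 probes were called higher and 254 lower, against 225 higher and 4359 lower with the array median. With 1 array left out at a time, Adcy6, Pde4a, Pde4d and Pde10a were called each time, while Pde8b was called only without naive array 1, Pde7a not without sham array 1 or 2 or naive array 2, 3 or 4, and Prkar1b not without sham array 4 or naive array 3. Striatum markers ran from 3.52 to 4.01 in naive rats and 3.07 to 3.2 in sham rats, and their part in the result was not tested.

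**Figure D4:**
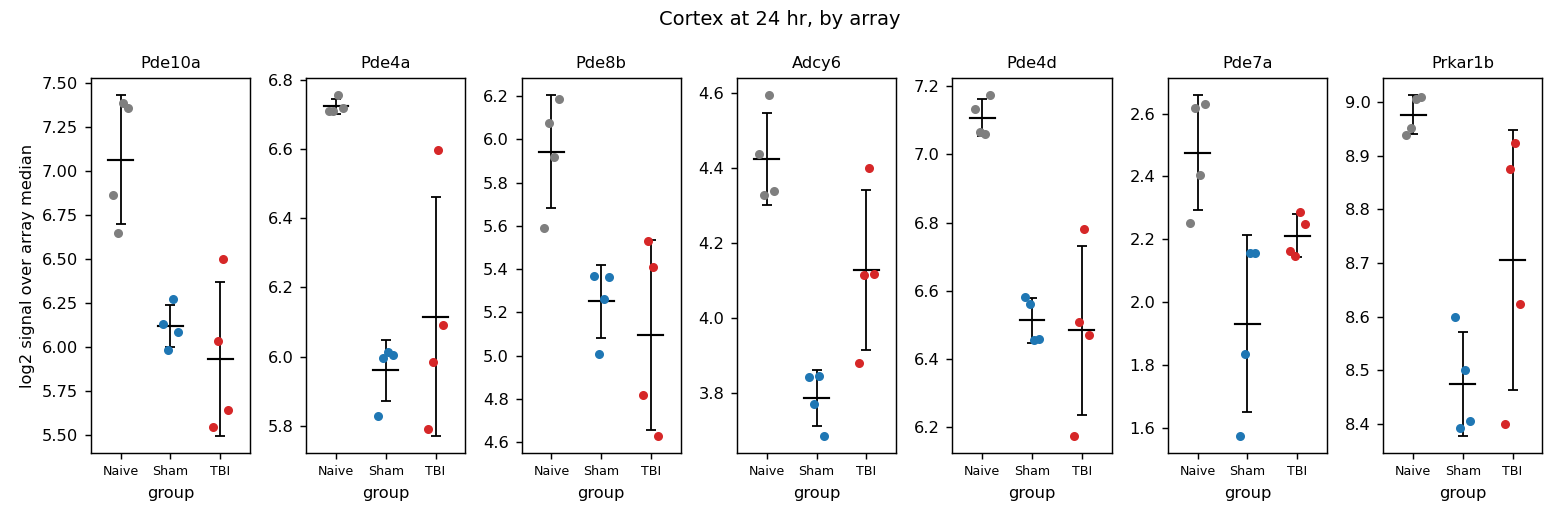
Level (log2 signal over the array median, vertical axis) in cortex at 24 hr of the 7 genes called lower in sham than in naive rats; points are arrays, bars the mean and error bars the SD, with the TBI arrays beside them. Every sham array of Pde4a (5.83 to 6.01) lies below every naive array (6.71 to 6.76).

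In the hippocampus at 2 weeks, 2 of 30 members were lower in sham than in naive, beside 8.97% of all probes called and 3.11% called lower. Pde1b was at 4.92, 4.95, 4.69 and 4.71 in naive and 4.24, 4.59, 4.40 and 4.50 in sham, without overlap (difference -0.39 ± 0.09; adjusted p = 0.0254). Pde4a was at 6.14, 6.15, 6.01 and 5.99 in naive and 5.84, 5.69, 5.81 and 5.74 in sham, again apart (difference -0.30 ± 0.07; adjusted p = 0.0253). Neither was called without sham array 3 or naive array 1 or 2, nor was Pde4a without sham array 2 or 4. Naive and sham arrays lay on different slides here, as they did in the hippocampus at 3 and 12 months and in the cortex at 3 and 12 months, so that slide and surgery cannot be told apart. No member was called in the hippocampus at 3, 6 and 12 months (22, 28 and 32 tested, beside 0%, 3.54% and 3.11% of all probes) or in the cortex at 2 weeks, 3, 6 and 12 months (30, 29, 29 and 32 tested, beside 0%, 0.404%, 0% and 4.35%). At an unadjusted p under 0.05 these comparisons held 0, 3 and 5 members in the hippocampus, beside 5.94%, 15.9% and 21.5% of all probes. In the cortex they held 0, 2, 2 and 5, beside 0.0488%, 9.06%, 6.77% and 18.1%. Without the arrays that stood apart there was again no member called in the hippocampus at 6 months, beside 13.6% of all probes, and the median of the members turned from 0.15 to -0.04. In the cortex at 2 weeks 0 of 31 were called without those arrays, beside 0.0169%, and the median moved from -0.58 to 0.03. Leaving out naive array 1 of the hippocampus at 6 months gave calls for Pde1b and Pde4a, and leaving out naive array 2 of the cortex at 12 months gave calls for Pde7a and Prkacb.

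The regional levels of the genes were compared in naive rats, with both tissues of a rat paired. Pde5a, Pde8b and Prkar2b were called lower in hippocampus than in cortex at both 6 and 12 months. Without the array that stood apart, Pde8b and Prkar2b were not called at 6 months (adjusted p = 0.165 and 0.087). At 6 months 5 of 28 members were called, all lower in hippocampus, beside 14% of all probes called and 10.1% called lower. With the 75th percentile of each array as its scale 1 was called higher and 7 lower, and over all probes the calls moved from 885 higher and 2311 lower to 3478 higher and 3360 lower. At 12 months 9 of 31 were called, beside 42.9% of all probes. Of the 9, 8 were lower in hippocampus, beside 14.4% of all probes called lower, and 1 higher, beside 28.5% called higher. The 9 include Adcy10 and Adcy1, which were above background in no hippocampal array and entered the test through the cortex arrays alone, so that nothing is read from their calls. The 5 at 6 months include Adcy10, which entered through the cortex arrays alone there too. At 2 weeks 0 of 30 were called, beside 5.65% (1 at an unadjusted p under 0.05, beside 17.5%), and without the arrays that stood apart 1, Adcy3, higher in hippocampus by 0.68 (adjusted p = 0.037), beside 15.7%. In the fit without those arrays the SE was 0.242 for every member, so this p does not reflect the spread of Adcy3 itself. Leaving out rat 2 at 2 weeks gave a call for Adcy10. Hippocampal and cortical arrays always lay on other slides and scan days, so that scan and region cannot be told apart.

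Adcy10 at 12 months was at -1.93, -2.41, -1.31 and -1.78 in hippocampus, above background in no array, and at 0.37, 0.85, -0.12 and -0.06 in cortex. Its cortex level was at least 1.35-fold higher than the hippocampal background bound (adjusted p = 0.00125, on a probe tested because it was high in cortex). At 6 months it was at -2.10, -1.26, -1.37 and -1.09 in hippocampus, above background in 2 arrays, and at 0.81, 0.02, -0.26 and 0.00 in cortex (difference -1.60 ± 0.32; adjusted p = 1.3e-05). The regions did not overlap at either interval. At both intervals the probe entered the test through the cortex arrays alone, so that nothing is read from the calls or from the lack of overlap.

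Pde8b at 12 months was at 4.67, 5.16, 4.87 and 5.21 in hippocampus and 5.80, 6.20, 5.66 and 5.86 in cortex (difference -0.90 ± 0.12; adjusted p = 0.00091). Prkar2b, a regulatory subunit that is abundant in brain, was at 5.40, 5.82, 5.56 and 5.55 against 6.23, 6.56, 6.30 and 6.39 (difference -0.79 ± 0.09; adjusted p = 0.000684). Neither gene overlapped between regions. Pde5a, at 2.63, 1.26, 1.78 and 1.78 against 2.58, 2.90, 2.23 and 2.88, differed by -0.79 ± 0.25 (adjusted p = 0.0354), with 1 hippocampal array inside the cortex range. Adcy1 was above background in no hippocampal array at 12 months (-1.89, -0.59, -0.50 and -0.57) and lay at 0.00, -0.18, -0.18 and 0.31 in cortex, at least 1.08-fold higher than the bound (adjusted p = 0.0219, again on a probe tested because it was high in cortex). Pde4a (-0.44), Pde1b (-0.34) and Adcy6 (-0.31) were called lower and Adcy3 (0.37) higher in hippocampus. Pde8b and Prkar2b were called whichever rat was left out, and Pde5a was not called without rat 2 or 4. Adcy10 was called each time and Adcy1 not without rat 4, but both were tested through the cortex arrays alone.

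At 6 months Pde5a was at 2.00, 1.56, 1.98 and 2.28 in hippocampus and 3.02, 2.94, 3.02 and 3.11 in cortex (difference -1.07; adjusted p = 0.00858), without overlap. Prkar2b, at 6.04, 4.99, 6.08 and 5.66 against 6.52, 6.70, 6.64 and 6.79 (difference -0.97; adjusted p = 0.0196), and Pde8b, at 5.54, 4.23, 5.07 and 5.16 against 5.70, 5.93, 6.17 and 5.71 (difference -0.88; adjusted p = 0.0425), did not overlap either. Pde1a, at 0.77, -0.35, 1.48 and 1.77 against 1.59, 1.98, 1.83 and 2.18, overlapped (difference -0.98; adjusted p = 0.0183). The SE of each of these differences was 0.32, since limma gave nearly all probes one common spread at this interval. Without hippocampal array 2, which stood apart and held the lowest Pde5a, Pde1a, Prkar2b and Pde8b values, only Adcy10 (-1.71; adjusted p = 0.0153) and Pde5a (-0.96; adjusted p = 0.0258) were called, beside 12.2% of all probes, and Pde1a differed by -0.53 (adjusted p = 0.18). Adcy10, tested through the cortex arrays alone, was called whichever rat was left out. Pde5a was not called without rat 3 or 4, Pde1a not without rat 2, Prkar2b not without rat 2 or 4 and Pde8b not without rat 2, 3 or 4.

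**Figure D5:**
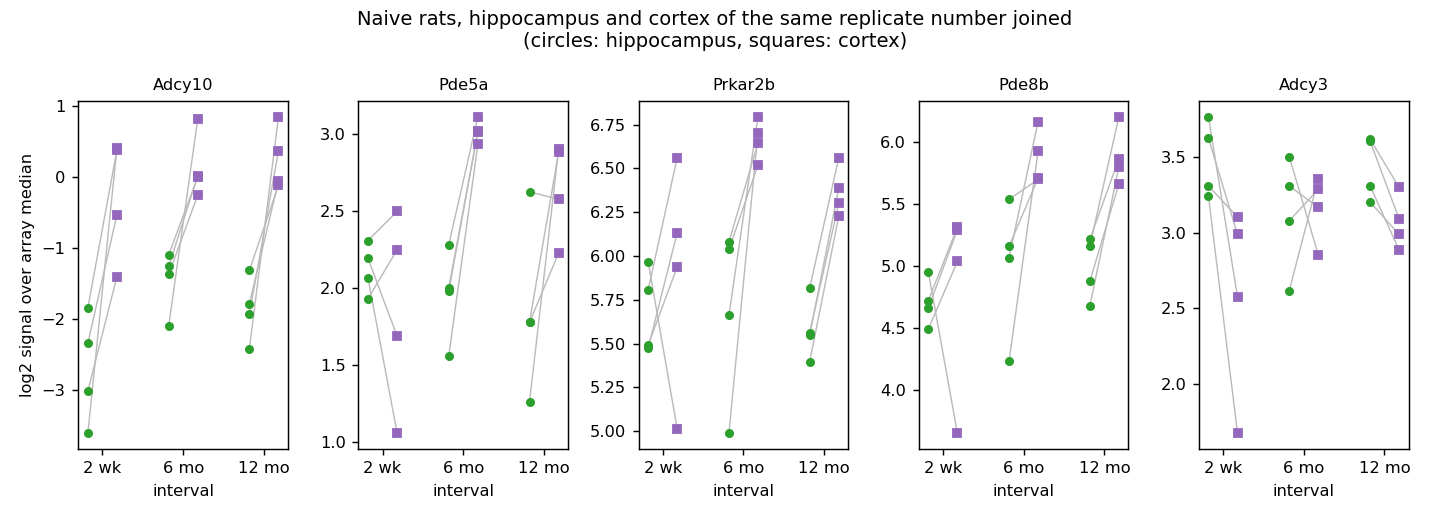
Level (log2 signal over the array median, vertical axis) of Adcy10, Pde5a, Prkar2b, Pde8b and Adcy3 in hippocampus and cortex of naive rats at 2 weeks, 6 months and 12 months; lines join the arrays of the same rat. At 12 months all 4 rats have less Prkar2b and more Adcy3 signal in hippocampus than in cortex, and Adcy10 is above background in no hippocampal array.

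Whether the TBI effect differed between the tissues was tested at 2 weeks, 6 months and 12 months, and 0 of 35, 0 of 33 and 0 of 34 members were called, beside 0% of all probes at each interval. Both tissues of a rat were paired at 2 weeks and 6 months. At 12 months the tissues came from other rats and were not paired. Without the arrays that stood apart 0 of 35 were called at 2 weeks, beside 0% of all probes, and the median of the members moved from -1.03 to -0.03. At an unadjusted p under 0.05 there were 0, 1 and 1 members, beside 0.892%, 4.78% and 10.8% of all probes. The effect on Creb5 at 12 months was higher in hippocampus by 1.04 (unadjusted p = 0.00619, adjusted p = 0.411). No difference between the tissues was therefore called for any change described above, and 24 hr and 3 months were not tested, since the tissues were measured on different array designs.

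Over the year of the study, naive rats at 12 months were compared with those at 2 weeks. In the hippocampus 0 of 30 members were called, beside 0.561% of all probes (1 at an unadjusted p under 0.05, beside 9.61%), and 0 of 30 without the array of 6 months that stood apart, beside 1.84%. In the cortex 1 of 31 was called, beside 2.35%, and the median difference was 0.47 for the members and 0.43 for all probes. Pde8b was at 5.04, 5.29, 5.31 and 3.65 at 2 weeks, the last from the array that stood apart, and at 5.80, 6.20, 5.66 and 5.86 at 12 months. The intervals did not overlap with or without that array. The difference was 1.06 ± 0.28 (adjusted p = 0.0409), or 0.67 without the arrays that stood apart (adjusted p = 0.0452, beside 2.31% of all probes). It was not called without any 1 of the 12-month arrays or without 2-week array 1, and without 2-week array 2 or 3 the count of members called rose to 8 and 12. With the 75th percentile of each array as its scale the median of all probes was -0.02, Pde8b differed by 0.61 (adjusted p = 0.0179) and Adcy9 was called too. The calls over all probes then moved from 480 higher and 69 lower to 899 higher and 847 lower. Arrays of both intervals lay on different slides and scan days, so that scan and age cannot be told apart.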

How the data were processed

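Total RNA of 113 tissue samples was labeled with a single dye and hybridized to rat arrays from Agilent, with an array for each rat and tissue. The authors deposited spot intensities from Agilent Feature Extraction 11.5.1.1, whose processed signal was already background-subtracted but not scaled between arrays, and, as a matrix, intensities divided by a constant of each array. The methods name the array median for this step, yet the 75th percentile of these scaled intensities lay within 0.1 of 0 on the log2 scale in 112 of 113 arrays and the median in 0. No spot was saturated (0%), and outlier spots (0.743% and 0.694% on the larger and smaller design) were left out. RefSeq names covered 46.3% and 61.4% of the probes. Replicate spots were averaged, and log2 processed signal minus the median of the array, the scale the methods name for raw intensities, was tested with limma 3.58.1 in R 4.3.3 (lmFit, contrasts.fit, eBayes, Benjamini-Hochberg adjustment over all probes tested). A probe was tested if one of the groups compared had it well above background on all arrays. TBI vs sham and sham vs naive were fitted on all groups of a tissue and interval, and naive hippocampus vs cortex with the rat as a block, since the deposited animal numbers follow the replicate number in both tissues. Where no array of a group was above background, a fold is a bound against the lowest signal above background. In this fold the dim group takes, array by array, the higher of that signal and its own. Replicates are separate rats, and their number limits the precision. The code was tested on simulated data.

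Named with values of every array were members called in TBI vs sham, up to 3 more per tissue and interval by size of change with separate groups and an unadjusted p under 0.05, and up to 5 called members in the other comparisons. Pathway genes were named where called in TBI vs sham, up to 4 per list. Adcy7, Crem and Adcy4 in the cortex at 24 hr, Adcy7 and Pde10a in the cortex at 2 weeks, and other members given without values by array, were added after their values were seen. The members and the gene lists were chosen with earlier results of these data known. Alternatives changed the scaling, background correction (normexp with an offset of 50 on the median signal), filter, probe, samples and block. Promoter windows are those of RefSeq on GRCr8, which name genes only. Some marker and receptor results are not reported here.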

Additional observations from a re-analysis of the deposited data

Results flagged for a closer look

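Of 72 groups of 4 arrays, 5 held a value whose gap to the nearest other array, divided by the range of the group, was over Dixon's 95% critical value. Chance alone marks about 1 group in 20. Crem in one cortex sham array at 2 weeks was at 0.743, with the others at 4.97 to 5.47, and Pde8b in one cortex naive array at 2 weeks was at 3.65, with the others at 5.04 to 5.31. Both come from arrays that stood apart as a whole. Adcy1 in one hippocampal naive array at 12 months was at -1.89 (others -0.59 to -0.50), on a probe not above background there. Adcy4 in one cortex naive array at 24 hr was at -0.133 (others -0.765 to -0.683). Pde4a in one cortex sham array at 24 hr was at 5.83 (others 6.00 to 6.01).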

How the results depend on the processing

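Counts of called members stayed within 1.5 times the count reported in 366 recounts and moved in 88. A count of 0 that remained 0 was taken as staying, so that this total says little about the stability of the calls made. For single named members, some of them not called in the main fit, 399 of 514 recomputed values kept direction and call status. Of the others 108 lost the call, 4 gained it and 3 reversed. The 3 were Adcy4 in the cortex at 2 weeks (-0.295 on the authors' intensities) and Prkacb in the cortex at 3 months (0.61) and 12 months (0.0123) with the median of its probes. The Prkacb probe described above had no usable spot on some sham arrays, where the median is then taken over its other probes, so these values compare different probes and show no reversal of any one probe. For Adcy4 the cause was not tested. For TBI vs sham in the hippocampus at 24 hr, the count of 3 became 5 with normexp, 0 without the filter on dim probes, 1 with the median of the probes and 1 with the replicate block. At 2 weeks the count of 1 became 0 under the 75th percentile, quantile scaling, the authors' intensities, normexp, no filter, the 2 groups alone and the replicate block. In the cortex, the count of 0 became 4 with normexp and 3 without the filter at 24 hr. At 2 weeks it became 1 each on the authors' intensities, without the filter and without the arrays that stood apart, a setting chosen after seeing the data. For sham vs naive in the hippocampus, the count of 2 at 2 weeks became 0 with normexp and with 2 groups alone and 1 without the filter. The count of 0 at 6 months became 2 under the 75th percentile, 4 under quantile, 2 on the authors' intensities and 1 with normexp, and that at 12 months became 1, 1 on the authors' intensities, 2 with normexp and 3 without the filter. In the cortex, the 7 at 24 hr became 0 under the 75th percentile, quantile scaling and the authors' intensities and 3 without the filter. At 3 months 1 was called on the authors' intensities, and at 12 months 1 under quantile, 1 on the authors' intensities, 4 with normexp and 1 without the filter. Between regions, the count of 0 at 2 weeks became 2, 1 and 2 under the 75th percentile, quantile and the authors' intensities, 1 with normexp and 1 without the arrays that stood apart. The count of 5 at 6 months became 8, 9 and 8, then 12 with normexp, 3 without the filter and 2 without the arrays that stood apart, and the 9 at 12 months became 3 without the filter. For age in the cortex the count of 1 became 2 under the 75th percentile and on the authors' intensities, 7 with normexp, and 0 without the filter, with the median of the probes and with 2 intervals alone.

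Leaving out 1 array at a time gave 0 to 3 calls for TBI vs sham in the hippocampus at 24 hr, 0 to 2 at 2 weeks, and 0 to 1 in the cortex at 24 hr and at 2 weeks. It gave 0 to 2 for sham vs naive in the hippocampus at 2 weeks and 6 months, 4 to 9 in the cortex at 24 hr and 0 to 2 at 12 months. Between regions the ranges were 0 to 1, 2 to 6 and 5 to 9, and for age in the cortex 0 to 12. By the deposited animal numbers, replicate numbers of the naive rats in the region test mark the same rat across tissues, and that test was paired on them. The sham and TBI arrays at 12 months came from other rats in each tissue. Deviations of same-numbered naive arrays correlated by 0.126 to 0.304 at 2 weeks, -0.384 to 0.0958 at 6 months and 0.315 to 0.463 at 12 months. At 6 months 0 of 4 pairs correlated over 0.1, so the values there do not bear the pairing out. Without the block the count at 6 months was also 5. Within a tissue, every same-numbered pair of sham and TBI arrays correlated over 0.1 in the cortex at 12 months alone (0.13 to 0.258), where the replicate block left the count at 0. The slide as a block was not run, since each group lay on 1 slide.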
